A study of Mus musculus with 2 samples.

Results

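Transforming growth factor beta (TGF-beta) is a secreted cytokine that is stored in a latent form and, once released, binds the type II receptor Tgfbr2, which recruits the kinase Tgfbr1. The receptors phosphorylate Smad proteins, which enter the nucleus and switch on targets that include their own inhibitors, so the level of those inhibitors is often read as a trace of ongoing signaling. In tumors the pathway is known for restraining T cells, for shaping macrophages and for activating fibroblasts and vessels. This account follows 10 of its genes, chosen by name among the 13774 genes of a mouse single-cell count table: the ligand genes Tgfb1 and Inhba, the receptor genes Tgfbr1, Tgfbr2 and Eng, and the feedback or target genes Smad7, Ski, Skil, Pmepa1 and Tgfbi. All 10 were in the table, and each is described across the marker-gated groups of cells.

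The table came from 2 libraries of the 10x Chromium 3' assay, which counts unique molecular identifiers (UMIs, 1 per captured transcript). Both were prepared from 8-week-old female C57BL6/J mice of the genotype Cdh5Cre-ERT2:ZSGreenl/s/l, in which tamoxifen turns on the ZSGreen reporter through a Cre driven by Cdh5, an endothelial cadherin gene. The normal library (NEC) was made from mammary gland and the tumor library (TEC) from EO771 mammary tumors, a syngeneic line grown in the fat pad for about 3 weeks, each after sorting for live ZSGreen+ cells. Apart from the tamoxifen that all mice received, no drug was given. The number of mice per library is not given in the sources used here, and the labels do not say outright whether the normal glands came from tumor-bearing animals.

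The cells of this count table did not look like the endothelial sort their labels name. The name of the table carries the tag negs, and whether it holds every sorted cell was not established. Of 1806 NEC cells and 1000 TEC cells, only 2 and 6 held at least 4 of 9 measured endothelial genes at 500 or more CPM (UMIs scaled to a common library total), and Cdh5 itself had 0 UMIs in NEC and 101 in TEC. The groups below were therefore gated by leukocyte, fibroblast and other marker genes, none of them among the 10 genes. They held 621 B, 578 T, 258 myeloid, 35 dendritic and 74 Dcn+ fibroblast cells in NEC, and 49 T, 599 myeloid, 53 dendritic and 171 Rhox5+ cells in TEC. TEC also held 3 B-gated and 12 fibroblast-gated cells, and NEC held 0 Rhox5+ cells. Those 12 cells had 3545 CPM of the fibroblast marker genes, against 15066 CPM in NEC fibroblasts. Their neutrophil marker genes stood at 2157 CPM, against 17.2 CPM in NEC fibroblasts, and the Rhox5 gate genes at 182 CPM. They are therefore called by their gate and not read as tumor fibroblasts. The Rhox5+ cells held at least 2 of the homeobox gene Rhox5, Tex19.1 and Nppb and under 300 CPM of the leukocyte genes Ptprc, Coro1a and Laptm5, and are called by that rule and not by a cell type; 96.5% of them held a UMI of the myeloid gene Lyz2, at 140 CPM. Gates are ranked below only where they held at least 20 cells, and the smaller ones are given apart. TEC cells were deeper, with a median of 8596 UMIs against 2264 in NEC, and the Rhox5+ cells reached 43471 and carried 52.3% of all TEC UMIs. With a single library on each side, differences have no replicate check and no p-value is given. The intervals are 95% intervals of counting error alone, exact Poisson for levels and Clopper-Pearson for ratios.

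Tgfb1 encodes the main TGF-beta ligand of leukocytes and lies at chr7:25687002-25705077 on the plus strand of mm10. In NEC its level was 429 CPM in B cells (395 to 467), 426 CPM in myeloid cells (387 to 468), 154 CPM in T cells (136 to 173), 108 CPM in dendritic cells (65.1 to 169) and 64.6 CPM in fibroblasts (36.2 to 107). B and myeloid cells stood together at the top of the normal gland, T cells lay 2.77-fold below myeloid cells (2.38 to 3.23), T cells lay 2.38-fold above fibroblasts (1.42 to 4.31), and dendritic cells could not be told from either. In TEC the level was 365 CPM in myeloid cells (349 to 382), 255 CPM in T cells (216 to 300), 109 CPM in Rhox5+ cells (102 to 116) and 107 CPM in dendritic cells (79.4 to 142). Myeloid cells again led, now 1.43-fold above T cells (1.21 to 1.70), which were 2.34-fold above the Rhox5+ cells (1.95 to 2.78). Of the Tgfb1 UMIs of the normal library, 37.3% sat in B cells, 28.9% in myeloid cells and 18.9% in T cells. Myeloid cells held 56.0% of those in the tumor library and the Rhox5+ cells 28.0%. The lead of NEC B cells is not firm: among NEC cells with 4000 UMIs or more their level was 325 CPM and myeloid cells came first.

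Inhba encodes the inhibin beta A subunit, which pairs with itself to form activin A, a ligand that signals through its own receptors to the same Smad proteins. It was close to absent from the normal library, with 17 UMIs in all: 9 in myeloid cells, where 6 came from a single cell, 7 in fibroblasts and 0 in B, T and dendritic cells. In TEC it reached 168 CPM in myeloid cells (157 to 180) from 867 UMIs, against 20.4 CPM in T cells (10.6 to 35.7), 13.1 CPM in dendritic cells (4.82 to 28.6) and 1.16 CPM in Rhox5+ cells (0.558 to 2.14). Myeloid cells thus held 91.7% of the tumor library's Inhba UMIs, and their level was 8.24-fold that of T cells (4.69 to 16.0), the next of the ranked gates. Within the myeloid gate the gene was uneven: 200 of 599 cells had a UMI, 25 cells had 10 or more, and the 60 cells with the most held 71.6% of the UMIs. The share of myeloid cells with an Inhba UMI was 33.4%, and 11.4% after each cell was thinned to 1000 UMIs; among Rhox5+ cells, at far greater depth, it was 4.09% and 0%. The 12 fibroblast-gated TEC cells held 13 UMIs in 2 cells, 64.0 CPM (34.1 to 109), and myeloid cells were 2.63-fold above them (1.53 to 4.96).

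**Figure D1:**
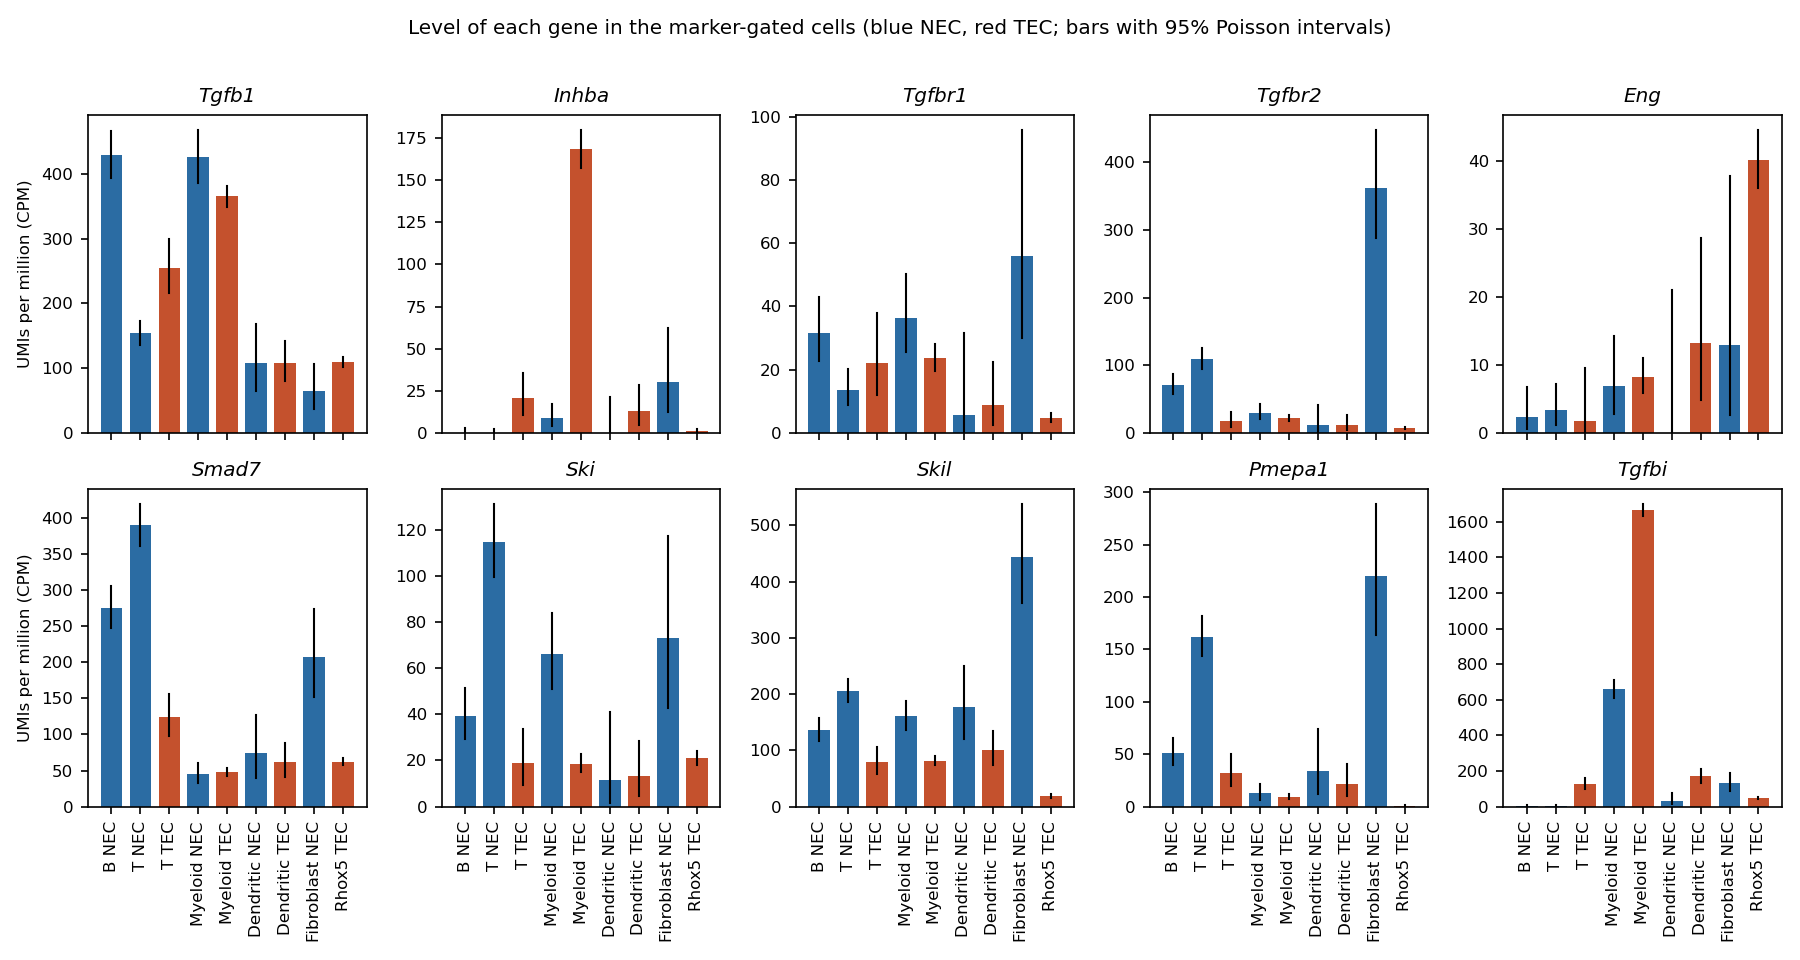
Level of each gene in CPM (vertical axis, a separate scale for each gene) in the 9 gate and library sums with at least 20 cells; bars are summed levels, blue for NEC and red for TEC, and black lines are 95% Poisson intervals. Tgfb1 stood highest in NEC B and myeloid cells, Inhba and Tgfbi in TEC myeloid cells, Tgfbr2, Skil and Pmepa1 in NEC fibroblasts, and Smad7 and Ski in NEC T cells.

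Tgfbr2 stood highest in normal fibroblasts, while Tgfbr1 was low in every gate. Tgfbr2, the ligand-binding type II receptor (mm10 chr9:116084293-116175360, minus strand), measured 362 CPM in NEC fibroblasts (289 to 448), 109 CPM in T cells (94.5 to 125), 70.8 CPM in B cells (57.1 to 86.8), 29.5 CPM in myeloid cells (19.9 to 42.2) and 11.4 CPM in dendritic cells (1.38 to 41.1). Each step from fibroblasts to T, T to B and B to myeloid cells was larger than counting error, at 3.32-fold (2.54 to 4.30), 1.54-fold (1.20 to 1.99) and 2.40-fold (1.57 to 3.75). In TEC it measured 21.2 CPM in myeloid cells (17.4 to 25.5), 17.0 CPM in T cells (8.17 to 31.3), 11.0 CPM in dendritic cells (3.56 to 25.6) and 6.63 CPM in Rhox5+ cells (5.02 to 8.58). No neighbouring pair differed beyond counting error, though myeloid cells were 3.19-fold above Rhox5+ cells (2.30 to 4.48). The 12 fibroblast-gated TEC cells had 12 Tgfbr2 UMIs, 59.1 CPM (30.5 to 103), which was 2.79-fold above myeloid cells (1.40 to 5.08), and a single cell held 50% of them.

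Tgfbr1, the signaling type I receptor (mm10 chr4:47353222-47414931, plus strand), had 143 UMIs in NEC and 197 in TEC. Its NEC level was 56.0 CPM in fibroblasts (29.8 to 95.8), 36.4 CPM in myeloid cells (25.6 to 50.2), 31.6 CPM in B cells (22.6 to 42.8), 13.6 CPM in T cells (8.83 to 20.1) and 5.69 CPM in dendritic cells, from 1 UMI. Fibroblast, myeloid and B cells could not be ordered at this depth, while B cells exceeded T cells 2.31-fold (1.37 to 3.97). In TEC it measured 23.5 CPM in myeloid cells (19.5 to 28.1), 22.1 CPM in T cells (11.8 to 37.9), 8.76 CPM in dendritic cells (2.39 to 22.4) and 4.65 CPM in Rhox5+ cells (3.32 to 6.33).

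Eng encodes endoglin, a co-receptor for TGF-beta and bone morphogenetic protein ligands that is abundant on endothelium and found on some macrophages. It was not used to gate any cell, and in TEC it was highest in the 6 cells gated by endothelial genes. These held 29 Eng UMIs, 369 CPM (247 to 529), with a UMI in all 6 although 1 cell held 48.3% of them. Rhox5+ cells came next at 40.1 CPM (36.0 to 44.6), 3.05-fold above dendritic cells (1.39 to 8.37), and through their depth they held 78.8% of the library's 438 Eng UMIs. Their level of the endothelial marker genes was 38.4 CPM, beside 54.4 CPM in TEC myeloid and 37.5 CPM in TEC T cells, so Eng did not follow those genes across these gates. TEC myeloid cells had 8.15 CPM (5.88 to 11.0), and NEC had 25 UMIs over all its cells, with 0 in its 2 cells gated by endothelial genes. A same-strand overlap with small RNA genes and an opposite-strand overlap with Fpgs were annotated at Eng (mm10 chr2:32646595-32682669), so a few of its UMIs may belong to them.

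**Figure D2:**
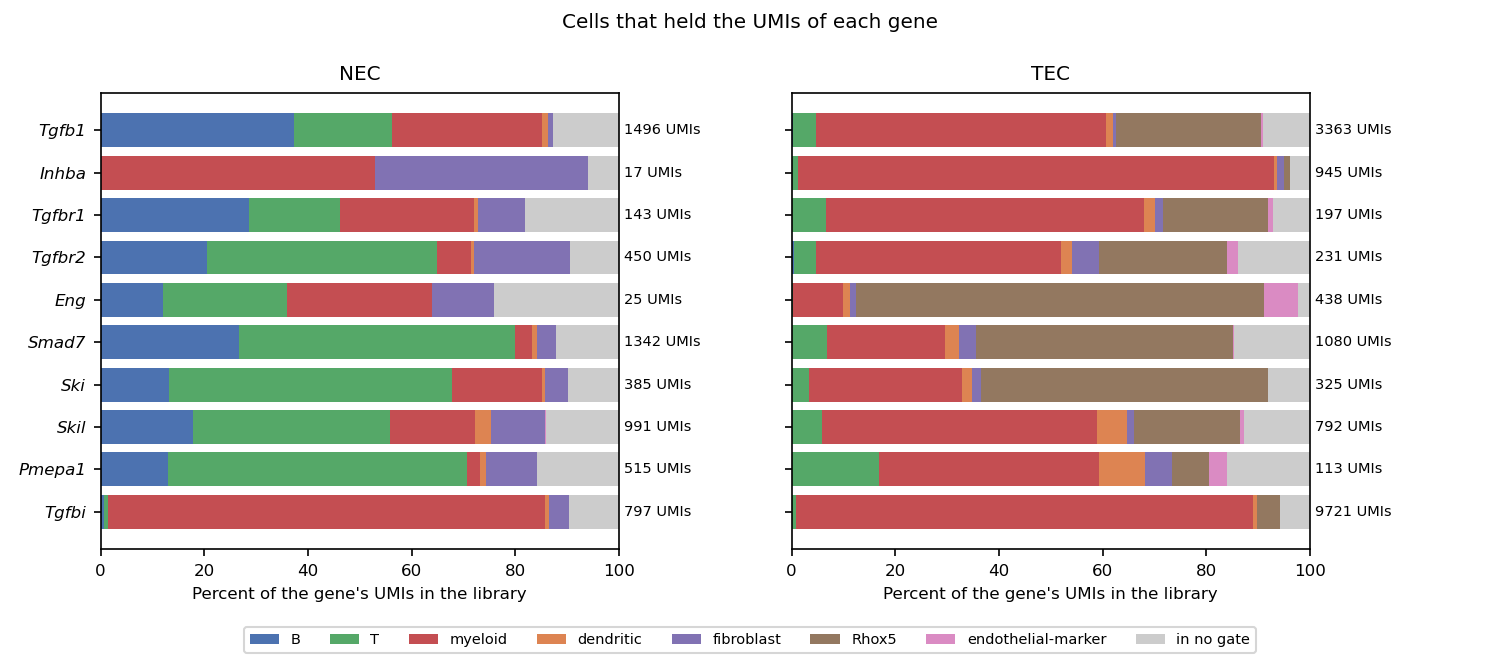
Percent of the UMIs of each gene (horizontal axis) that fell in each gate of the NEC library (left) and the TEC library (right), with the number of UMIs of the gene beside each bar. Myeloid cells held 91.7% of Inhba and 88.2% of Tgfbi UMIs in TEC, and T cells held 53.2% of Smad7 and 57.7% of Pmepa1 UMIs in NEC.

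In the normal gland Smad7 and Ski had their highest level in T cells, and Pmepa1 and Skil in fibroblasts followed by T cells. Smad7, the inhibitory Smad that sends the type I receptor for degradation, measured 390 CPM in NEC T cells (361 to 419), 276 CPM in B cells (248 to 306), 207 CPM in fibroblasts (153 to 274), 74.0 CPM in dendritic cells (39.4 to 126) and 45.3 CPM in myeloid cells (33.2 to 60.4). T cells exceeded B cells 1.41-fold (1.24 to 1.61), and B cells and fibroblasts did not differ beyond counting error. In TEC the level was 124 CPM in T cells (97.4 to 156), 62.2 CPM in Rhox5+ cells (57.0 to 67.7), 61.3 CPM in dendritic cells (40.8 to 88.6) and 47.8 CPM in myeloid cells (42.0 to 54.1). Among the ranked gates T cells again came first, 2.0-fold above the Rhox5+ cells (1.54 to 2.56). The 12 fibroblast-gated cells had 182 CPM (128 to 251), a ratio to T cells of 1.47 (0.959 to 2.21).

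Pmepa1, a membrane protein that holds back receptor-activated Smads (mm10 chr2:173224458-173276533, minus strand), was highest in fibroblasts and T cells of the normal gland. Its NEC level was 220 CPM in fibroblasts (164 to 289) and 162 CPM in T cells (144 to 182), then 51.6 CPM in B cells (40.0 to 65.5), 34.1 CPM in dendritic cells (12.5 to 74.3) and 12.8 CPM in myeloid cells (6.81 to 21.9). T cells held 57.7% of its NEC UMIs and lay 3.14-fold above B cells (2.40 to 4.16). TEC had 113 Pmepa1 UMIs in all, at 32.4 CPM in T cells (19.5 to 50.5), 21.9 CPM in dendritic cells (10.5 to 40.3), 9.32 CPM in myeloid cells (6.87 to 12.4) and 0.93 CPM in Rhox5+ cells (0.402 to 1.83).

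Skil and Ski encode related corepressors that bind the Smad complex. Skil (mm10 chr3:31095058-31122577, plus strand) measured 444 CPM in NEC fibroblasts (362 to 538), 206 CPM in T cells (186 to 227), 176 CPM in dendritic cells (120 to 250), 160 CPM in myeloid cells (137 to 187) and 135 CPM in B cells (116 to 157), so only the fibroblasts stood apart from the gate next to them. In TEC it was 101 CPM in dendritic (73.8 to 134), 81.5 CPM in myeloid (73.9 to 89.7), 80.0 CPM in T (58.8 to 106) and 18.8 CPM in Rhox5+ cells (16.0 to 22.0). Ski (mm10 chr4:155154075-155222592, minus strand) measured 115 CPM in NEC T cells (99.6 to 131), 73.2 CPM in fibroblasts (42.7 to 117), 66.0 CPM in myeloid cells (51.1 to 83.8), 39.3 CPM in B cells (29.2 to 51.6) and 11.4 CPM in dendritic cells, from 2 UMIs. In TEC its gates lay close together, between 13.1 CPM in dendritic cells (4.82 to 28.6) and 20.9 CPM in Rhox5+ cells (18.0 to 24.2).

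Tgfbi encodes a secreted matrix protein named for its induction by TGF-beta, and here it was a myeloid gene in both libraries. Its NEC level was 661 CPM in myeloid cells (612 to 713), 134 CPM in fibroblasts (90.7 to 190), 34.1 CPM in dendritic cells (12.5 to 74.3), 3.85 CPM in B cells (1.25 to 8.98) and 3.27 CPM in T cells (1.20 to 7.12). In TEC it was 1664 CPM in myeloid cells (1629 to 1700), 171 CPM in dendritic cells (135 to 213), 126 CPM in T cells (98.9 to 158) and 48.9 CPM in Rhox5+ cells (44.4 to 53.9). Myeloid cells held 84.3% of its UMIs in NEC and 88.2% in TEC, and led the next gate 4.95-fold (3.46 to 7.35) and 9.74-fold (7.80 to 12.3).

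The tumor and normal cells could be set against each other in the T, myeloid and dendritic gates, which had at least 20 cells on both sides. A gene was tested where both sums together held at least 50 UMIs, and it met the size rule where its CPM ratio reached 2 in either direction with an interval that left out 1. Of 4102 genes tested in T cells 38.0% met the rule, 25.6% higher in TEC and 12.4% lower, and the corresponding shares were 29.2%, 22.7% and 6.54% of 6621 genes in myeloid cells and 21.6%, 15.9% and 5.71% of 1419 genes in dendritic cells. So wide a background means that a single gene past the rule is common between these libraries. The median log2 ratio over all genes tested was 0.31 in T, 0.37 in myeloid and 0.27 in dendritic cells. A scaling that sets the bulk of genes equal would lower every log2 ratio by 0.47, 0.22 and 0.11, and in T cells it turned the split of all genes from 1049 higher and 510 lower to 565 and 904.

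In T cells the feedback genes and Tgfbr2 were lower in the tumor library. Of the 10 genes, 7 were tested and 3 were under the minimum. Of those 7, 5 fell past the rule, 1 rose past it and 1 did neither, beside 12.4% lower and 25.6% higher of all genes. The median log2 ratio of the 7 was -1.65. Smad7 was 124 CPM in TEC and 390 CPM in NEC, a 3.13-fold lower level (2.46 to 4.04). Pmepa1 was 5.01-fold lower (3.15 to 8.44), Ski 6.12-fold (3.35 to 12.4), Skil 2.57-fold (1.89 to 3.56) and Tgfbr2 6.41-fold (3.41 to 13.6, 10 against 200 UMIs). Under the other scaling these 5 ratios moved further from 1, in the same direction, and more of all genes were lower than higher. The share of T cells with a Smad7 UMI hid the difference, at 62.8% in NEC and 67.3% in the deeper TEC cells, and after thinning to 1000 UMIs per cell it was 31.8% and 10.2%. A Pmepa1 UMI was found in 34.6% and 28.6% of T cells, or 16.8% and 8.16% once thinned, while thinned myeloid cells gave 0.388% and 0.668%.

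Tgfb1 did not follow its feedback genes. It was 1.66-fold higher in TEC T cells (1.35 to 2.03), short of the rule, and 1.20-fold (0.977 to 1.47) under the scaling that sets the bulk of genes equal. Tgfbr1 had 13 UMIs in TEC and 25 in NEC T cells and Eng 1 and 6, too few for the rule.

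**Figure D3:**
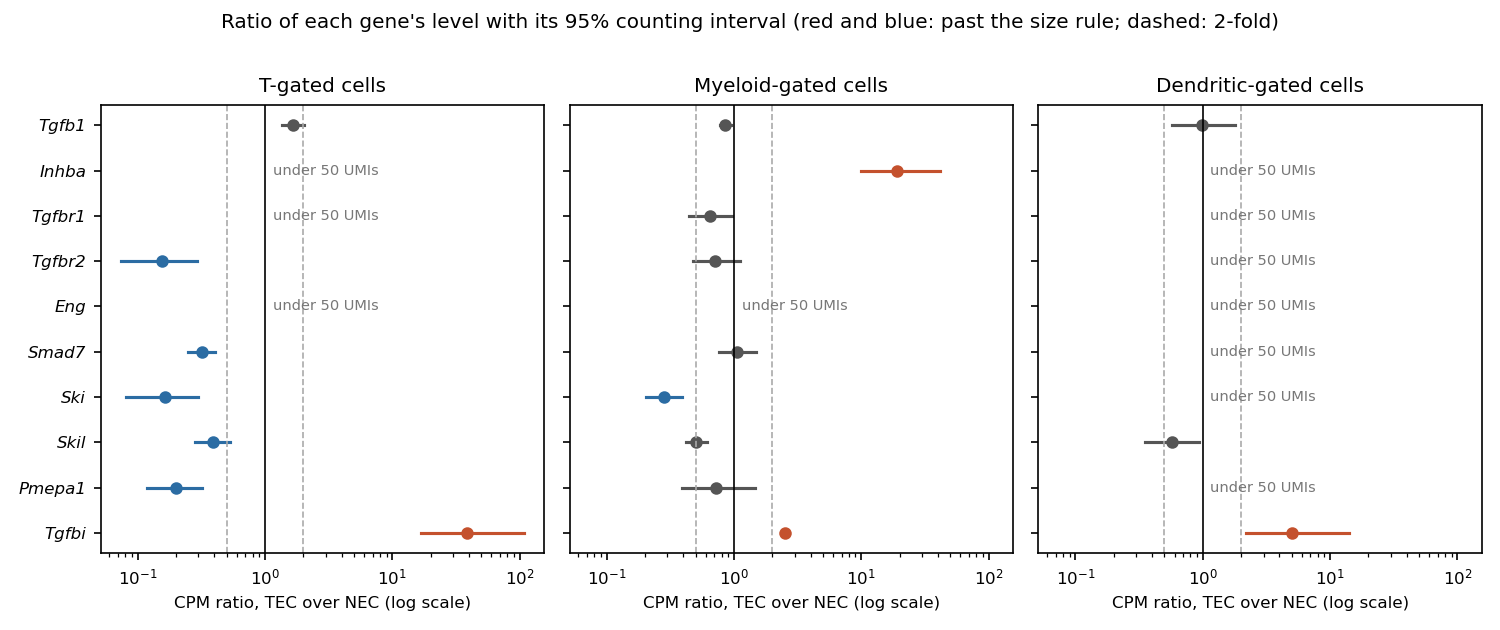
Ratio of each gene's CPM in TEC over NEC on a log axis, with its exact 95% counting interval, in T, myeloid and dendritic cells; the solid line marks no difference and the dashed lines 2-fold. In T cells Tgfbr2, Smad7, Ski, Skil and Pmepa1 lay below 1 and Tgfbi far above it, and in myeloid cells Inhba and Tgfbi lay above 1 and Ski below.

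T cells differed in kind between the libraries, so the gate was split by naive or egress genes (Ccr7, Lef1, S1pr1) against effector genes (Il2rb, Ctla4, Icos, Tnfrsf4, Cxcr6). Naive genes led in 420 of 578 NEC cells and 7 of 49 TEC cells, and effector genes in 94 and 41. Within effector-led cells, where 34.3% of 1872 genes met the size rule, Smad7 was 121 CPM in TEC and 347 CPM in NEC, a ratio of 0.348 (0.249 to 0.481). The ratio was 0.150 for Pmepa1 (0.0795 to 0.266), 0.108 for Ski (0.0469 to 0.220) and 0.322 for Skil (0.212 to 0.480), so the lower feedback levels were also found within effector-led cells. For Tgfbr2 the effector-led counts were 8 and 21 UMIs, a ratio of 0.251 (0.0963 to 0.591) under the minimum.

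For Tgfb1 the value depended on the split. Effector-led NEC cells held 4.98 times the Tgfb1 level of naive-led NEC cells (3.88 to 6.39), a contrast in which 10.9% of 2826 genes met the rule. Within effector-led cells Tgfb1 was lower in TEC, 290 CPM against 449 CPM, a ratio of 0.646 (0.509 to 0.820) that did not reach the size rule, and among naive-led cells the ratio was 1.16 (0.491 to 2.37) on 7 TEC cells. Of the 94 effector-led NEC cells, 10 held the innate lymphoid genes Il1rl1 or Il5 and had more Tgfb1 than the rest, 2.88-fold (1.92 to 4.24) in a contrast where 11.4% of 678 genes met the rule. Without such cells the TEC ratio was 0.787 with an interval that included 1 (0.607 to 1.02). Smad7 did not separate naive-led from effector-led NEC cells, with a ratio of 0.897 (0.725 to 1.10).

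By coreceptor, 216 NEC and 27 TEC cells held Cd8a or Cd8b1 without Cd4, and 39 and 8 held Cd4 alone. In the Cd8 cells, where 38.5% of 2187 genes met the rule, the ratio was 0.358 for Smad7 (0.260 to 0.483), 0.207 for Pmepa1 (0.104 to 0.373), 0.202 for Ski (0.0786 to 0.434), 0.199 for Tgfbr2 (0.0776 to 0.429) and 0.516 for Skil (0.330 to 0.782). Tgfb1 was 251 CPM in the TEC Cd8 cells and 82.0 CPM in the NEC ones, a ratio of 3.07 (2.20 to 4.28). In the few Cd4 cells it was 138 CPM and 309 CPM, a ratio of 0.445 (0.217 to 0.856) that rests on 2 NEC cells. These held 23 of the 37 NEC UMIs, both carried Il1rl1 or Il5, and without them the ratio was 1.07 (0.464 to 2.46). In the 322 NEC and 11 TEC cells with neither coreceptor the Tgfb1 ratio was 1.51 (1.03 to 2.18), short of the rule. The coreceptor groups were not split further by naive and effector genes. Foxp3, the regulatory T cell gene, was found in 8 NEC and 10 TEC cells, whose Smad7 levels were 254 CPM (102 to 523) and 59.2 CPM (23.8 to 122).

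**Figure D4:**
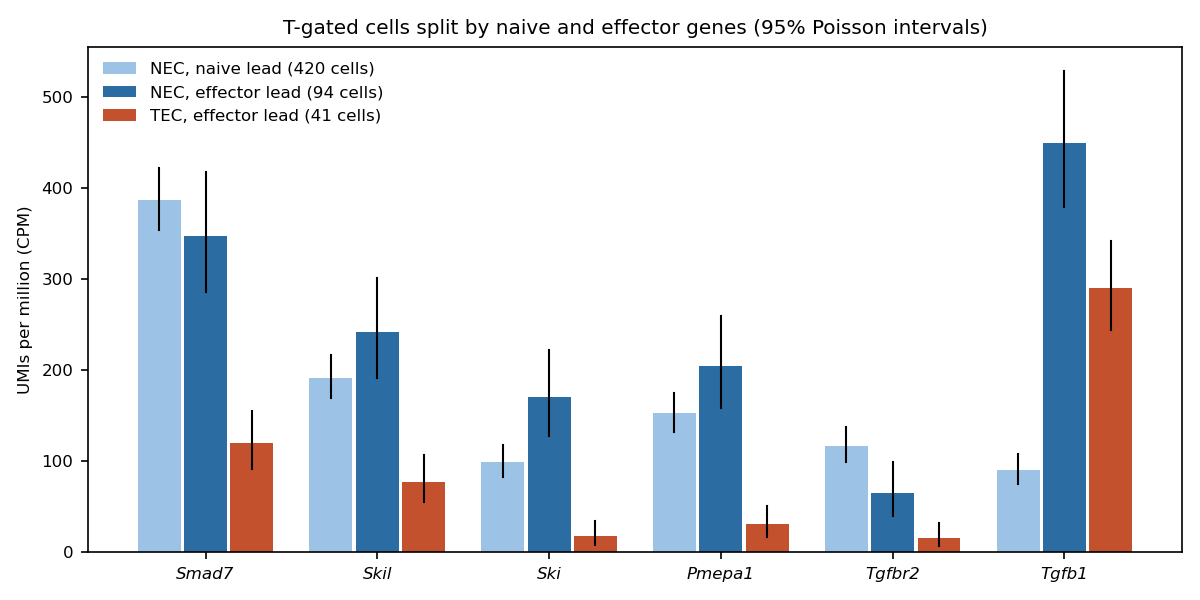
Level in CPM of 5 feedback or receptor genes and of Tgfb1 in T-gated cells led by naive genes (NEC, 420 cells) or effector genes (NEC, 94 cells; TEC, 41 cells), with 95% Poisson intervals. Smad7, Skil, Ski and Pmepa1 were lower in effector-led TEC cells than in either NEC group, while Tgfb1 in these cells lay between the naive-led and effector-led NEC levels.

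Myeloid transcripts moved with these T cell results. TEC T cells held Lyz2, a myeloid lysozyme gene, at 586 CPM, 7.12% of its level in TEC myeloid cells, against 0.316% in NEC, and Cd68 stood at 7.68% against 0.224%. The complement genes C1qa, C1qb and C1qc stood at 1.05% to 1.63% in TEC and at 0.186% to 0.273% in NEC. The Tgfbi level of TEC T cells was 7.57% of the myeloid one, between the Lyz2 and Cd68 values, and that of Inhba 12.1%. A UMI of Lyz2, Cd68 or a C1q gene was present in 43 of 49 TEC T cells, and those 43 held all 74 Tgfbi UMIs, so the 38.5-fold higher Tgfbi level (16.9 to 108) of TEC T cells is not a value for T cells free of such transcripts. In the other 6 cells Tgfbi and Tgfbr2 had 0 UMIs, a level of up to 62.8 CPM. Smad7 there was 204 CPM (106 to 357) and Pmepa1 51.1 CPM (10.5 to 149), with ratios to the matching NEC cells that still met the rule, and Ski and Skil no longer did. The part of myeloid RNA in the lower feedback levels was not tested further.

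**Figure D5:**
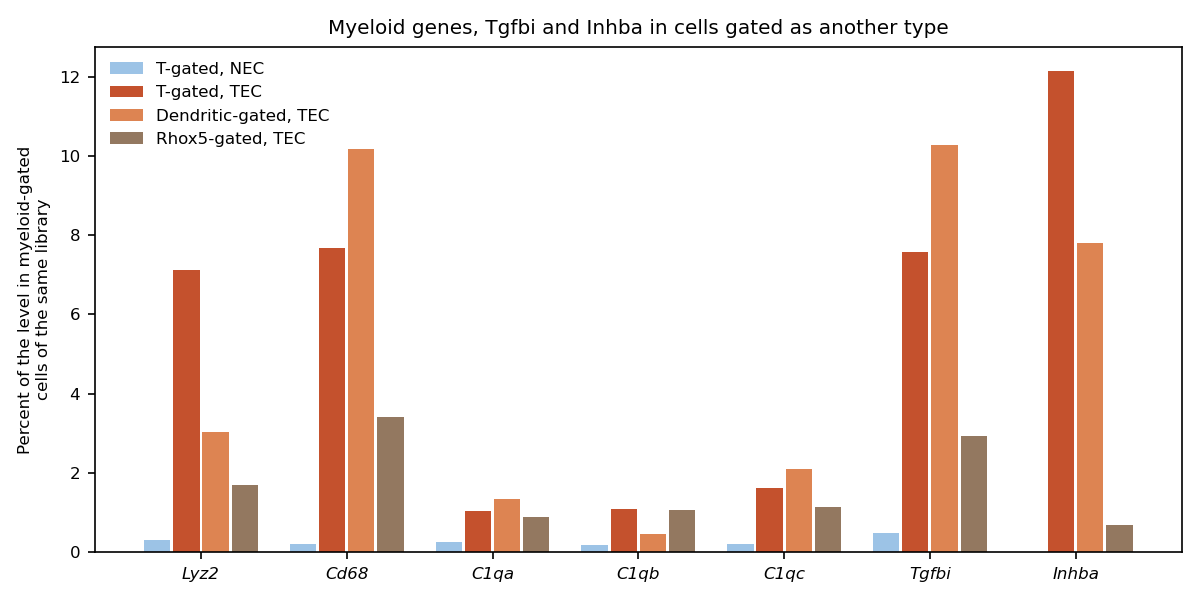
Level of myeloid genes, Tgfbi and Inhba in cells gated as another type, as a percent of the level in myeloid-gated cells of the same library (vertical axis). In TEC T cells Lyz2, Cd68 and Tgfbi stood at 7.12% to 7.68% and Inhba at 12.1%, while NEC T cells stayed under 0.5% for each gene.

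In myeloid cells Inhba and Tgfbi were higher in TEC, Ski was lower, and Smad7 did not differ beyond counting error. Of 9 genes tested, 2 rose past the rule, 1 fell and 6 did neither, beside 22.7% higher and 6.54% lower of all genes, so these counts are near the background. Eng was under the minimum, and the median log2 ratio was -0.46. Inhba was 168 CPM in TEC and 8.86 CPM in NEC, 19.0-fold higher (9.96 to 41.7) on 867 and 9 UMIs, and without its top cell on each side the ratio was 54.4. Tgfbi was 2.52-fold higher (2.33 to 2.73), with a UMI in 96.8% of TEC and 74.8% of NEC cells, or 69.6% and 41.5% after thinning, and 15.1% and 5.71% in thinned dendritic cells. A Tgfbi count of 10 or more was found in 364 of 599 TEC cells and 10 of 258 NEC cells. Ski was 18.6 CPM against 66.0 CPM, 3.54-fold lower (2.55 to 4.88).

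Skil narrowly missed the rule at 1.97-fold lower (1.63 to 2.36) and met it under the scaling that sets the bulk of genes equal. Smad7 was 47.8 CPM and 45.3 CPM, a ratio of 1.05 (0.767 to 1.48), so a 2-fold difference in either direction lay outside its interval. Tgfb1 had a ratio of 0.857 (0.772 to 0.954) and Pmepa1 of 0.728 (0.388 to 1.46), and for the receptors it was 0.645 at Tgfbr1 (0.443 to 0.959) and 0.717 at Tgfbr2 (0.475 to 1.11). Among NEC cells of 4000 UMIs or more the Tgfbr1 ratio turned to 1.30.

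Higher Tgfbi and Inhba in TEC were found on both sides of a split by the complement genes C1qa, C1qb and C1qc, which mark mature macrophages, at 1000 CPM. The split gave 94 NEC and 119 TEC cells above that level, with 4 and 23 of them less than 2-fold from it, and 164 and 480 below, and 41.5% of 3002 and 27.3% of 5929 genes met the rule. Tgfbi was 2.54-fold higher in TEC above the level (2.18 to 2.97) and 2.5-fold below it (2.28 to 2.74). Inhba had 92 UMIs in TEC and 0 in NEC above it, and was 15.2-fold higher below it (7.99 to 33.5). Ski was lower below the level, a ratio of 0.341 (0.231 to 0.510), and under the minimum above it, at 17 and 26 UMIs. Skil met the rule above the level at 0.330 (0.233 to 0.470) and not below it at 0.605 (0.483 to 0.763), and Smad7 met it on neither side. Within TEC, C1q-high cells had less Inhba than C1q-low cells, a ratio of 0.443 (0.353 to 0.550) where 4.64% of 6182 genes met the rule, while the Tgfbi ratio was 0.957 (0.908 to 1.01). All 13 Pmepa1 UMIs of NEC myeloid cells fell in the C1q-high cells. A UMI of Cd3d, Cd3e or Cd3g was present in 57 of the 599 TEC myeloid cells, and these had Smad7 at 117 CPM (91.0 to 148) against 38.8 CPM (33.3 to 45.0) in the rest, and Inhba at 84.7 CPM (62.9 to 112) against 179 CPM (167 to 192).

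Because Tgfbi and Inhba carry the myeloid difference and Tgfbr2 the receptor difference in T cells, their promoters are shown, each from 250 bases before to 50 bases after the gene's start in RefSeq (GRCm38.p6, the assembly of mm10), 5′ to 3′ on the gene's strand. Capitals mark CAGAC, the core of the Smad-binding element, on either strand. The Tgfbi window is chr13:56609336-56609635 on the plus strand, the Inhba window is chr13:16011601-16011900 on the plus strand and the Tgfbr2 window is chr9:116175314-116175613 on the minus strand.
Tgfbi: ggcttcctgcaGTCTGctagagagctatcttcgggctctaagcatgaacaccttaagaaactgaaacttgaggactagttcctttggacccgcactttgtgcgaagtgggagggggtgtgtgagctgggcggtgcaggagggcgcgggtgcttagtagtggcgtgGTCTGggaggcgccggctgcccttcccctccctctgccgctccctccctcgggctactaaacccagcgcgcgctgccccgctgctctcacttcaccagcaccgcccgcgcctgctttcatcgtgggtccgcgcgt
Inhba: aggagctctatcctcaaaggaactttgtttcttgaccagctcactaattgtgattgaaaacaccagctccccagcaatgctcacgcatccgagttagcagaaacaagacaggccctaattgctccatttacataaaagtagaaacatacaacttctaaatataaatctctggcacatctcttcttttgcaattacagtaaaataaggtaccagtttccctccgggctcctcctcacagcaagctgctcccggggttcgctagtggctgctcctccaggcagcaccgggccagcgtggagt
Tgfbr2: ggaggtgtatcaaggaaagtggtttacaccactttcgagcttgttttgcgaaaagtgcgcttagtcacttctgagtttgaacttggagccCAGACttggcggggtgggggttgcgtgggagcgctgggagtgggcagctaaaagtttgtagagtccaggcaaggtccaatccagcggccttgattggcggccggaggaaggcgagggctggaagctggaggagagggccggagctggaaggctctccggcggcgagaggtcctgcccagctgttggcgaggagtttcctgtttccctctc

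The Tgfbi window held 2 copies of CAGAC, Tgfbr2 held 1 and Inhba 0. CAGAC on either strand was present in 49.6% of 32851 promoter windows of that length, so these matches do not set the genes apart. TGANTCA, the AP-1 motif, overlaps no CAGAC match and was absent from these windows and from those of Tgfb1, Tgfbr1, Eng and Ski, while 7.81% of all windows held it. The sequence table had 7 of the 10 genes, without Smad7, Skil and Pmepa1.

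In dendritic cells 7 of the 10 genes were under the minimum, 1 of the 3 tested rose past the rule and 0 fell, beside 15.9% higher and 5.71% lower of all genes, and the median log2 ratio was -0.01. Tgfbi was 171 CPM in TEC and 34.1 CPM in NEC, a ratio of 5.01 (2.20 to 14.1) on 78 and 6 UMIs, with 66.7% of the NEC UMIs in 1 cell. As a mean of per-cell CPM the ratio was 2.03 and no longer met the rule. In TEC the gene was lower in the 41 dendritic cells with Ccr7, the lymph node homing receptor, at 78.3 CPM than in the 12 without it at 417 CPM, a ratio of 0.188 (0.112 to 0.306) where 31.5% of 1109 genes met the rule. In TEC dendritic cells Tgfbi stood at 10.3% of the TEC myeloid level and Cd68 at 10.2%. Lyz2 stood at 3.04%, C1qa at 1.35%, C1qb at 0.474% and C1qc at 2.10%. In NEC dendritic cells Cd68 stood at 16.3% of the NEC myeloid level. The 43 TEC dendritic cells with a UMI of Lyz2, Cd68 or a C1q gene held 74 Tgfbi UMIs. The 10 without one held 4, a level of 49.3 CPM (13.4 to 126). In NEC the 16 cells with such a UMI held 6 and the 19 without held 0. The part of myeloid RNA in this result was not tested further. Tgfb1 had a ratio of 0.993 (0.574 to 1.79) and Skil 0.571 (0.355 to 0.932).

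Another 50 genes of the pathway, among them latent-binding proteins, activators, activin and bone morphogenetic protein receptors, Smads and response genes, were read in the same way, and 46 were in the table. In T cells 12 were tested, 5 were higher in TEC and 1 lower, beside 25.6% and 12.4% of all genes. The higher ones were Thbs1, an activator of latent TGF-beta (25.0-fold, 14.0 to 48.5, with 29.8% of its TEC UMIs in 1 cell), Bhlhe40 (4.90-fold, 3.75 to 6.42), Id2 (3.21-fold, 2.78 to 3.70), the cell cycle inhibitor Cdkn1a (3.14-fold, 2.47 to 4.0) and the integrin gene Itgav (2.85-fold, 1.83 to 4.43). Thbs1 was also a myeloid gene here, at 960 CPM in TEC myeloid cells. Junb, an AP-1 subunit and early response gene, was lower, with a ratio of 0.439 (0.393 to 0.490).

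In myeloid cells 22 were tested, 5 were higher and 1 lower, beside 22.7% and 6.54% of all genes. Mmp14, a membrane protease able to release latent TGF-beta, had 500 UMIs in TEC and 0 in NEC. The lower bound of its ratio was 26.6, and a floor of 3 counts over the NEC sum gave a ratio of 32.9. Id1, a target of bone morphogenetic protein signaling, was 4.68-fold higher (2.22 to 11.8), Acvrl1, a type I receptor of that family, 2.73-fold (1.59 to 5.09), Rgs1, a regulator of G protein signaling, 4.31-fold (3.65 to 5.12) and Cdkn1a 2.0-fold (1.80 to 2.23). Fn1, which encodes fibronectin and is a classical TGF-beta target, was 134 CPM in TEC and 1245 CPM in NEC, a ratio of 0.108 (0.0979 to 0.118), opposite in direction to Tgfbi. In dendritic cells 7 were tested and 0 met the rule.

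The other ligand genes were sparse. Tgfb2 had 51.7 CPM in NEC fibroblasts from 12 UMIs and Tgfb3 16.2 CPM in NEC B cells from 21 UMIs. The latent-binding proteins Ltbp4 and Ltbp1, which tether TGF-beta to matrix, measured 306 CPM and 134 CPM in NEC fibroblasts and 17.0 CPM and 27.9 CPM in Rhox5+ cells. Nrros, which tethers latent TGF-beta on myeloid cells, measured 167 CPM in TEC myeloid and 112 CPM in TEC dendritic cells. Normal dendritic cells held 148 CPM (96.6 to 217) and normal myeloid cells 111 CPM (91.7 to 134), with overlapping intervals. NEC B cells held 78.5 CPM of Nrros and NEC fibroblasts 0. Lrrc32, the counterpart of Nrros on regulatory T cells, was highest of the ranked gates in NEC fibroblasts, at 43.1 CPM from 10 UMIs. The T gate had 8 Lrrc32 UMIs on each side, a level of 13.6 CPM for TEC and 4.4 CPM for NEC.

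Over the 9 gate and library sums, the genes whose log2 level followed each gene most closely are named as a description, since the sums share 2 libraries and their depths. Elf1 came first for both Smad7 (Pearson r 0.938) and Pmepa1 (0.959), followed by Wac (0.938) and Tnrc6b (0.936). Acer3 (0.989) and Ctsa (0.971) were nearest to Tgfbi, Ifi202b (0.966) and Phf11d (0.943) to Inhba, and Lpxn (0.914) and Snx5 (0.901) to Tgfb1. Ddx5 (0.945) and Crebbp (0.942) were nearest to Tgfbr2, Pcf11 (0.914) and Mafk (0.910) to Tgfbr1, and Akr1b8 (0.927) and Psmd11 (0.906) to Eng. Arih1 (0.952) and Ptp4a1 (0.950) were nearest to Skil, and Jak1 (0.901) and Vcpip1 (0.898) to Ski.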

How the data were processed

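STAR 2.5.1b, Cell Ranger 2.0.2, Seurat and the build mm10 are named in the submitters' processing notes, without settings. The deposited table used here is a matrix of raw UMI counts, with 1 row per gene and 1 column per cell. Columns beginning "control" were taken as NEC, which rests on that word alone, and "tumor" as TEC; 0 columns were left over and the libraries shared 2 barcodes. No source used here states the strand setting.

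Cells passed with 500 genes, 1000 UMIs and no more than 10% of UMIs mitochondrial, and 5 NEC and 0 TEC cells failed. A cell entered the endothelial-marker gate with 4 genes of that list at 500 CPM, or the Rhox5 gate with 2 of Rhox5, Tex19.1 and Nppb at 200 CPM and under 300 CPM of Ptprc, Coro1a and Laptm5. Otherwise it joined the B, T, myeloid, dendritic or fibroblast gate whose list made up at least 0.6 of its summed log marker levels, with 2 genes present. The T list rests on Cd3d, Cd3e, Cd3g, Lat and Lck, since the receptor chain genes were not measured here, and the naive T list leaves out 1 gene that is not reported here. This left 22 NEC and 78 TEC cells mixed and 211 and 29 without a gate. No gate was set for epithelial cells or neutrophils. The 211 NEC cells without a gate held epithelial marker genes at 4685 CPM and neutrophil marker genes at 1110 CPM. Doublets were left in for the main values; leaving out the 7 NEC and 3 TEC cells that Scrublet (scanpy 1.11.5) marked was an alternative.

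UMIs were summed per gate and library, and ratios are of CPM, TEC over NEC. Edge cases with 0 UMIs use a floor of 3 counts. Simulated counts with known folds were used to check the rule. They were drawn with Poisson error alone, so the check could not show how the rule behaves with spread between cells or animals. The alternatives include TMM factors from edgeR 4.0.16 (R 4.3.3); Python 3.11.15, numpy 2.4.6, pandas 2.3.3 and scipy 1.17.1 were used. All 10 genes are named whatever their values, other pathway genes where they met the rule (up to 8 per gate), and the 2 most similar genes of 4337 with 500 UMIs or more, by log2(CPM + 5). The 10 genes and all lists were chosen with earlier results of these data known, and gate limits were settled on marker genes without reading the 10 genes. Counting intervals treat UMIs as independent and hold no spread between animals.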

Additional observations from a re-analysis of the deposited data

Results flagged for a closer look

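Tgfb1 differed in direction between the T and myeloid gates taken whole. Its TEC over NEC ratio was 1.66 in T cells and 0.857 in myeloid cells, with intervals on opposite sides of 1, and the difference between the gates was not tested. The T value was 1.20 with an interval that included 1 under TMM scaling, where the myeloid value was 0.734. The T gate held mostly naive-led cells in NEC and effector-led cells in TEC. Within effector-led T cells the ratio was 0.646 (0.509 to 0.820), on the same side of 1 as in myeloid cells. Without cells holding Il1rl1 or Il5 it was 0.787 (0.607 to 1.02). Among naive-led T cells it was 1.16 (0.491 to 2.37) on 7 TEC cells.

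Within the T gate the Tgfb1 ratio was 3.07 in cells with Cd8 alone and 0.445 in cells with Cd4 alone, again with intervals on opposite sides of 1. The Cd4 value came from 13 TEC UMIs in 8 cells and 37 NEC UMIs in 39 cells, and the difference was not tested. It rests on 2 NEC cells with Il1rl1 or Il5 that held 62.2% of those UMIs, since without them the ratio was 1.07 (0.464 to 2.46).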

How the results depend on the processing

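The highest gate of a gene was kept in 136 of 140 values under other settings. Of 197 values of the gene ratios, 181 were counted as unchanged, 6 came to meet the size rule and 3 no longer met it. A ratio past the rule counted as unchanged if it stayed past it in the same direction. Any other counted so if it stayed short of the rule and inside its main interval. Unchanged ratios could thus cross 1, as Smad7 in myeloid cells did, running from 0.830 to 1.17. Another 6 moved, among them Tgfbr1 in myeloid cells from 0.645 to 1.30, and 1 ratio past the rule reversed. The reversed one was Tgfbi in T cells, with a ratio of 0 (upper bound 23.3) in cells without UMIs of the other type, a setting chosen after seeing the data that left 6 TEC cells. In T cells this setting gave 0 genes of the 10 higher and 3 lower, and 472 higher and 181 lower of all genes; a stricter gate gave 0 of the 10 higher. All genes lower in T cells numbered 194 with NEC cells of 4000 UMIs or more, and TMM scaling gave 565 higher and 904 lower. A minimum of 20 UMIs gave 1681 higher in T cells, and 392 higher and 175 lower in dendritic cells. In myeloid cells 2 of the 10 were lower with a stricter gate, TMM scaling or no UMIs of the other type, and 3 with the mean of per-cell CPM, Skil being among them each time. In dendritic cells 0 of the 10 were higher with a stricter gate, per-cell means or no UMIs of the other type, and 1 was lower with per-cell means. Leaving out cells with UMIs of the other type gave 69 higher and 38 lower of all genes there. Of 60 counts of all genes, 10 moved, all given above, and 50 stayed near the main count. The main counts were 1049 higher and 510 lower of 4102 in T, 1502 and 433 of 6621 in myeloid, and 226 and 81 of 1419 in dendritic cells. The Tgfbi ratio in dendritic cells ran from 2.03 to 23.8. Some settings left fewer cells and genes, and the cause of these changes was not tested. Of 86 shares of cells with a UMI, 77 moved after thinning. In T cells with Cd4 alone the Tgfb1 ratio of 0.445 turned to 1.07 without 2 NEC cells and was 0.850 without 2 cells of each library, settings chosen after seeing the data. No paired analysis was possible because each group has 1 library. Depth limits the ratios of genes with few UMIs, such as Inhba with 17 in NEC, Pmepa1 with 113 in TEC and Tgfbr1 with 143 and 197.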

Other observations

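Cells with both T and myeloid genes, which joined no gate, numbered 43 in TEC and 4 in NEC. The 43 TEC cells had Tgfb1 at 291 CPM (247 to 341), Smad7 at 147 CPM (117 to 184), Inhba at 63.5 CPM (43.9 to 88.7) and Tgfbi at 653 CPM (587 to 726). Their Inhba and Tgfbi levels lay between those of TEC T cells and TEC myeloid cells, and their Smad7 level was above that of both gates, with an interval that overlapped the T cell one. Their Skil level, 84.0 CPM (61.3 to 112), lay within the interval of TEC T cells, and their Pmepa1 level, 18.7 CPM (8.95 to 34.3), lay just below it, with an interval that overlapped it.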
